A study of Homo sapiens with 49 samples.

Results

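GREB1 (ENSG00000196208) was described here as 1 locus, taken as its span at chr2:11622467-11782914 on the plus strand of hg19 with 100 kb on each side. It was chosen because earlier work on these peak lists showed RNA polymerase II (RNAPII) filling it after estrogen, so the values below are descriptions and carry no test. All 45 peak lists of the series were placed along this window of 360 kb. It held 464 of the 528044 peaks of the series, and 32 of the 45 lists had at least 1 peak in it. Ishikawa contributed 62 of these peaks from 16 of its 21 lists, and T-47D 402 peaks from 16 of its 24 lists.

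GREB1 (growth regulating estrogen receptor binding 1) encodes a chromatin-bound cofactor of the estrogen receptor and is a classic estrogen-induced gene in breast cancer cells. The liganded receptor binds estrogen response elements, which are palindromes of a short half-site, often far from the start of the gene it acts on, and recruits cofactors and RNAPII. RNAPII that leaves a start site travels through the whole gene and past its end before it is released. ChIP-seq of RNAPII can therefore show both where the enzyme enters a gene and how far it has run.

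The 45 lists came from Ishikawa, an endometrial adenocarcinoma line, and T-47D, a breast carcinoma line. Both were kept in hormone-depleted medium before treatment with vehicle or estrogen. The full media libraries named below are the exception by their label. Vehicle (DMSO) was compared with 17beta-estradiol (E2) at 10 nM, for 1 h where a protein was precipitated and 8 h where a histone mark was. SIN3A was compared between stripped media and full media, and the Ishikawa H3K36me3 library came from full media alone. T-47D RNAPII had 2 libraries per treatment and every other group 1 library, and no label says that the 2 came from separate cultures. The lists hold no expression values, so the line labels were not checked against marker genes.

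Several features of the lists bear on what follows. A list holds only calls, and the smallest -log10 p-value in any list was 10.0, so no peak does not mean no binding. List lengths ran from 2 peaks (Ishikawa MYC E2) to 46282 (RNAPII E2 replicate 1). The T-47D lists of SIN3A, LSD1 and RARA and the Ishikawa lists of MYC and H3K36me3 had under 1000 peaks each. H3K27me3 marks Polycomb-silenced chromatin, yet 81.5% of Ishikawa DMSO, 96.3% of Ishikawa E2 and 85.7% of T-47D DMSO H3K27me3 peaks overlapped an H3K4me3 peak of the same line and treatment, H3K4me3 being the mark of active promoters. The T-47D H3K27me3 E2 list had 107 peaks, of which 5.61% did so. These 4 libraries are named by their labels below. A peak averages over a population of cells, so fewer bound cells and less binding per cell cannot be told apart.

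The sequences shown first are the perfect estrogen response elements, since the receptor binds such sites and GREB1 is one of its known target genes, although no list profiles the receptor. They are spelled GGTCA and TGACC with any 3 bases between them, which read the same on both strands. Exactly 3 such matches lay in the window, all in introns upstream of the MANE Select start of GREB1 (transcript GREB1-204, base 11674171), from which every distance below is measured. They stood at -21.1, -9.4 and -1.5 kb. Each is shown with 24 bases on either side, hg19 plus strand, the element in capitals.
ERE at -21.1 kb, chr2:11653012-11653072: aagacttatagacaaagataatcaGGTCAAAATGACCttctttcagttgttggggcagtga
ERE at -9.4 kb, chr2:11664702-11664762: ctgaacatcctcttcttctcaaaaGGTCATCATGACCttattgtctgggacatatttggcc
ERE at -1.5 kb, chr2:11672636-11672696: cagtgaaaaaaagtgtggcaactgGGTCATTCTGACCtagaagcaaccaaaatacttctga

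The element at -1.5 kb lay under a peak in 3 lists, which were Ishikawa JUN E2 and both T-47D RNAPII E2 libraries, and in no DMSO list. Windows of 300 bp around all summits held such a match in 0.344% of Ishikawa JUN E2 peaks and in 0.307% and 0.269% of the peaks of RNAPII E2 replicates 1 and 2. By that measure the element counted for the summits of Ishikawa JUN E2 (11672721) and RNAPII E2 replicate 2 (11672619). It did not count for RNAPII E2 replicate 1, whose summit (11672842) lay 176 bp past its middle. The other 2 elements lay under no peak, but each was flanked by a peak of RNAPII E2 replicate 1. That peak ended 73 bp before the element at -21.1 kb (fold enrichment 11.7) and began 51 bp after the element at -9.4 kb (fold enrichment 12.2). RNAPII E2 replicate 2 and all other lists had no peak within 2 kb of either. The response elements were picked after their places relative to the peaks had been seen.

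Another intronic site, at -35.3 kb, carried the highest fold enrichment within the gene in both lines (53.9 in Ishikawa, 42.0 in T-47D). Its 300 bases hold no perfect response element. They hold 1 match to the AP-1 site TGANTCA, in capitals, at -35.5 kb under peaks of 13 lists. The printed bases were placed by this match, so that they hold it was fixed in advance. JUN is a subunit of AP-1.
Element at -35.3 kb, chr2:11638681-11638980: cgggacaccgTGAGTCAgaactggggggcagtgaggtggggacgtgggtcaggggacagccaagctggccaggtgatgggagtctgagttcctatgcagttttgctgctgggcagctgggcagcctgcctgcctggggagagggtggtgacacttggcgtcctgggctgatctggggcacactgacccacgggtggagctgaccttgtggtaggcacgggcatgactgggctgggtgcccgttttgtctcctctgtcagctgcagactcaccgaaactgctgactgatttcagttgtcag

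The AP-1 letters are common. They were matched 117 times in the window, 32 times under a peak, and stood within the 300 bp around the summit of 20.1% of Ishikawa JUN E2 peaks, 6.996% of T-47D JUN DMSO peaks and 4.95% of T-47D JUN E2 peaks. By that measure the match at -35.5 kb, which begins at base 11638691, counted for the T-47D JUN E2 summit (11638810). It did not count for the summits of Ishikawa JUN E2 (11638872) and T-47D JUN DMSO (11638850).

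Along the locus, peaks of the lines were arranged differently. In Ishikawa they fell at a few separate places, with 10 peaks in the upstream flank, 3 at start sites, 23 in the gene before the MANE start, 18 after it and 8 in the downstream flank. In T-47D the same zones held 16, 38, 36, 270 and 42 peaks, and 356 of the 402 belonged to RNAPII or JUN. Merging overlapping peaks within a line gave 15 regions in Ishikawa and 110 in T-47D. Of the Ishikawa regions 11 (73.3%) overlapped a T-47D region, and of the T-47D regions 9 (8.18%) overlapped an Ishikawa region. RNAPII was profiled in T-47D alone, and 10 of the Ishikawa regions overlapped an RNAPII E2 peak. These shares therefore compare unlike sets of targets, and the overlap due to RNAPII coverage alone was not tested. The same shares over the genome were not counted, so whether those of this locus are unusual is not known. The peak nearest the upstream edge inside the window was T-47D H3K4me3 E2 at -68.4 kb (fold enrichment 17.2), and the first one outside it was Ishikawa H3K4me1 DMSO at -154 kb (15.2). At the downstream edge these were Ishikawa JUN E2 at 164 kb (9.05) and Ishikawa H3K4me1 E2 at 209 kb (8.20).

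**Figure D1:**
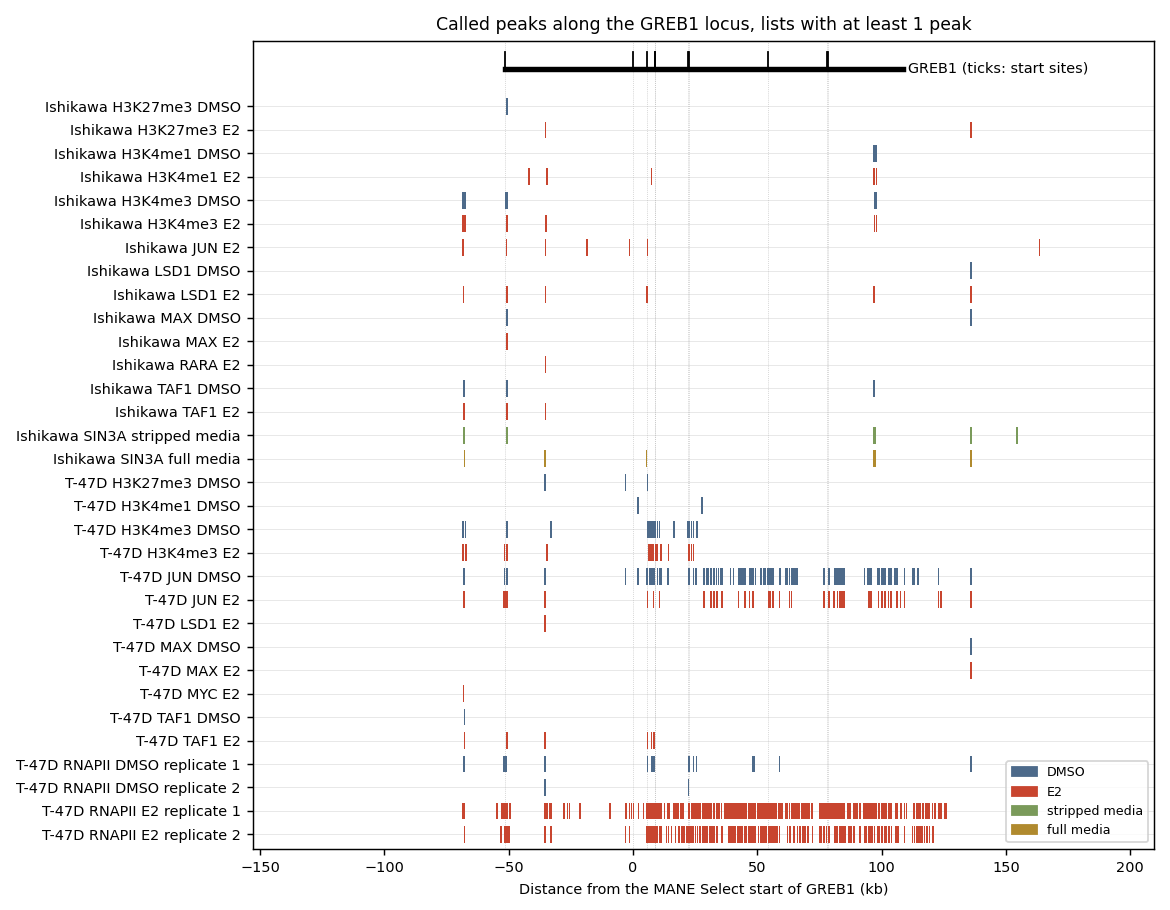
Called peaks of the 32 lists with a peak at the GREB1 locus, by distance from the MANE Select start in kb. Each bar is 1 peak, drawn at least 0.6 kb wide and coloured by treatment, and the ticks above mark annotated start sites. The 2 RNAPII E2 libraries of T-47D fill the gene from its inner start sites to past its end. Ishikawa, which has no RNAPII list, has peaks at a few separate places.

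Between treatments, the number of peaks at the locus moved in different directions by target. In Ishikawa the 9 E2 lists had 32 peaks at the locus and the 9 DMSO lists 17. JUN had 0 peaks under DMSO and 7 under E2, and LSD1, a histone demethylase, 1 and 6. More peaks under E2 was the rule for these antibodies in Ishikawa, at 97.6% of the protein-coding genes with a JUN peak within the same reach and at 85.1% for LSD1. RARA, the retinoic acid receptor alpha, had 0 and 1 (more at 96.1% of genes), and H3K27me3 1 and 2 (more at 87.6%). H3K4me3 had 6 peaks under DMSO and 7 under E2 (more at 42.4%) and the enhancer mark H3K4me1 4 and 5 (more at 22.2%). TAF1, the largest subunit of the general factor TFIID, had 3 in each. MAX, the partner of MYC, had 2 and 1 (fewer at 61.8% of genes). SIN3A, a corepressor scaffold, had 7 in stripped media and 6 in full media (fewer at 53.9%). MYC and H3K36me3 had none, but their whole lists held only 61 (MYC DMSO), 2 (MYC E2) and 114 (H3K36me3) peaks.

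In T-47D, TAF1 had 1 peak at the locus under DMSO and 6 under E2, where 40.4% of genes had more. H3K4me3 had 16 and 14 (fewer at 44.8%), H3K4me1 2 and 0 (fewer at 87.4%) and H3K27me3 3 and 0 (fewer at 99.9%). LSD1 had 0 and 1 (more at 97%), MYC 0 and 1 (more at 74.3%), MAX 1 and 1, and RARA and SIN3A none. These 8 targets with both treatments, SIN3A left aside, summed to 23 peaks under each. JUN had 75 peaks under DMSO and 39 under E2 (fewer at 47.5%).

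**Figure D2:**
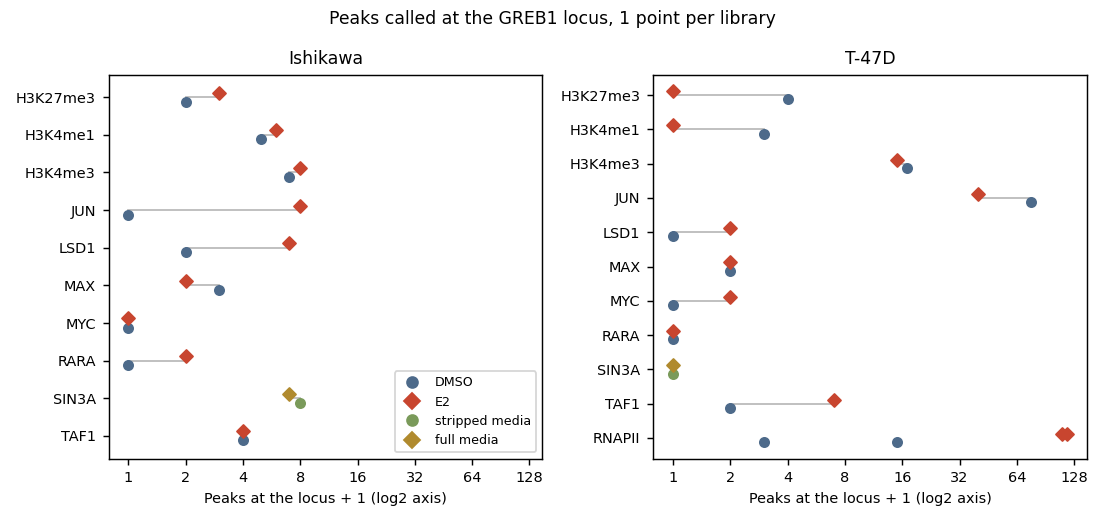
Number of peaks at the GREB1 locus, plus 1, on a log2 axis, by target, with 1 point per library. Circles are DMSO or stripped media and diamonds E2 or full media. The 2 RNAPII E2 libraries (109 and 117 peaks) stand far from the 2 DMSO libraries (2 and 14), and T-47D JUN lies the other way round, with 75 under DMSO and 39 under E2.

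RNAPII, measured in T-47D alone, had 14 and 2 peaks at the locus in DMSO replicates 1 and 2 and 117 and 109 in E2 replicates 1 and 2. The means were 8 ± 8.49 and 113 ± 5.66 peaks (SD, n = 2 each), a ratio of 14.1, whereas the whole lists differed by a ratio of 1.15. The bases under a peak numbered 6266 and 552 under DMSO and 88781 and 60041 under E2, and the ratio of their means was 21.8. Both E2 libraries were above both DMSO libraries on each measure. Within the gene span alone, 29.0 and 3.44 bp per kb were covered under DMSO and 495 and 332 under E2. Of 14082 protein-coding genes with an RNAPII peak, 251 (1.78%) had higher coverage per kb in both E2 lists than in both DMSO lists, and GREB1 was chosen as one of them. The spread between the DMSO libraries decided the size of the ratio. Without DMSO replicate 1 the ratio of peaks was 56.5 and that of covered bases 135, and without DMSO replicate 2 they were 8.07 and 11.9.

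RNAPII coverage under E2 was uneven along the gene. From the outermost start to the MANE start it was 11.2% and 8.37% in E2 replicates 1 and 2, against 2.81% and 0.406% under DMSO. From the MANE start to the start of GREB1-202 at 5.80 kb it was 23.7% and 8.31%, against 4.85% and 0%. From there to the end of the gene, over 103 kb, it was 70.2% and 46.99%, against 2.83% and 0.332%. In these last 103 kb the E2 lists had 77 and 87 peaks and the DMSO lists 9 and 1. The median fold enrichment of those peaks was 19.99 and 10.4 under E2, and 10.5 and 7.90 under DMSO.

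By bins of 10 kb, coverage in both E2 libraries was highest at 40 to 50 kb, at 89.9% and 66.8%. It was 61.2% and 31.9% at 100 to 110 kb, near the end of the gene. The end of the gene was not the end of the signal. Over the first 10 kb past it, 48.3% and 47.8% of bases were under an E2 peak, and over the next 10 kb 24.3% and 7.42%. The last such peak ended 17.4 and 12.2 kb past the gene. Neither DMSO library had a peak in these 20 kb, and inside the gene their last peaks ended at -49.7 and -86.3 kb relative to its end (DMSO replicates 1 and 2).

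**Figure D3:**
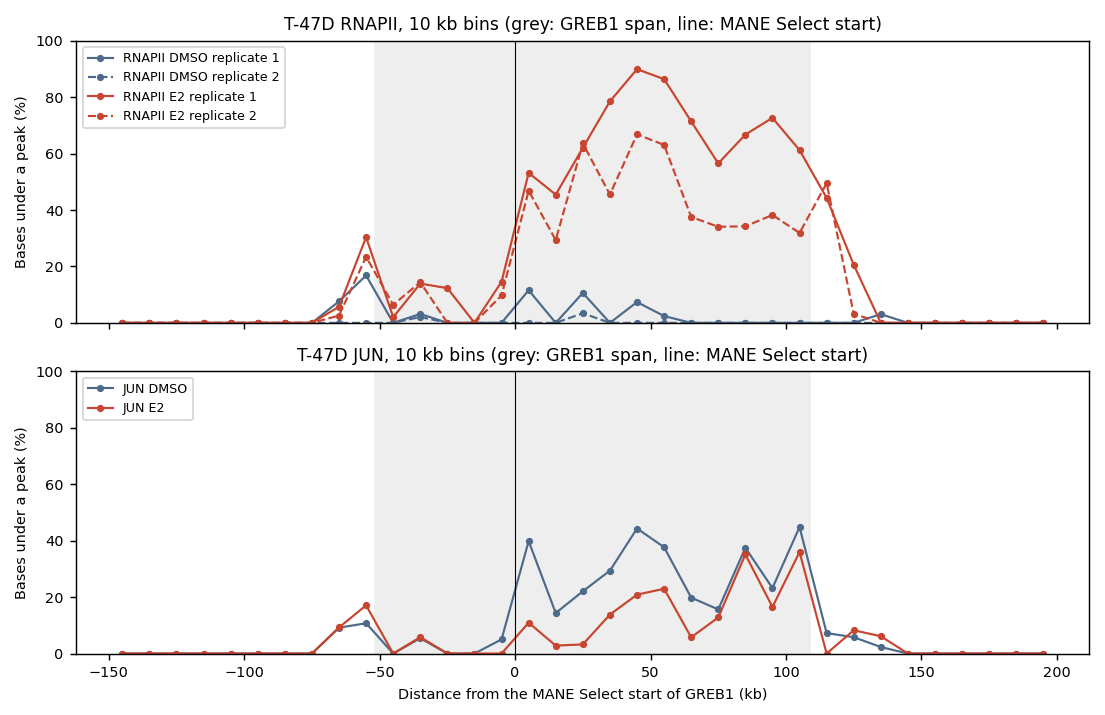
Share of bases under a peak in bins of 10 kb along the GREB1 locus, for T-47D RNAPII (upper panel, 4 libraries) and T-47D JUN (lower panel, 2 libraries), by distance from the MANE Select start in kb. RNAPII under E2 reaches 89.9% and 66.8% in the bin from 40 to 50 kb, and JUN is lower under E2 than under DMSO in each bin from 0 to 110 kb.

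The 14 peaks of RNAPII DMSO replicate 1 lay partly at start sites and partly in the gene. They included the E2F6 start (fold enrichment 46.3), the outermost GREB1 start (23.8), the element at -35.3 kb (15.4), inner start sites at 5.83 kb (10.5) and 22.3 kb (11.9), and the NTSR2 start (19.1). A further 6 lay in the gene after the MANE start and away from start sites, among them 48.6 kb (16.8), 24.4 kb (11.98) and 59.0 kb (8.99). DMSO replicate 2 had its 2 peaks at -35.3 kb (10.0) and 22.3 kb (7.90). These were the places that both DMSO libraries shared, and both E2 libraries held them too.

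The element at -35.3 kb, in the first part of the gene that only the outermost transcript GREB1-210 spans, held 7 targets in Ishikawa, as many as the region at -50.7 kb, and more than any other region there on the E2 or full media side. Peaks of 7 targets covered it under E2 or in full media, and none did under DMSO or in stripped media. The E2 lists were much longer for JUN (18311 peaks against 3768), LSD1 (18384 against 8618), RARA (2883 against 137) and H3K27me3 (6992 against 2199). For these targets, absence under DMSO cannot be read from the lists. The TAF1 E2 and SIN3A full media lists were the shorter of their pairs. JUN had a fold enrichment of 53.9 there, above 98.96% of its list, and LSD1 49.1, above 99.5% of its list. H3K4me3 followed with 18.6, SIN3A with 18.1, RARA with 15.7, H3K27me3 with 14.5 and TAF1 with 9.55. The summits of all but H3K4me3 fell between bases 11638842 and 11638907. Genome-wide, 4 of 53555 merged Ishikawa regions (0.00747%) had peaks of at least 7 targets on the E2 or full side and none on the other. The 53555 include regions with any number of targets. H3K4me3 (15.9) and H3K4me1 (7.92) peaks of the E2 lists lay next to it at -34.7 kb.

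In T-47D the same element was already occupied under DMSO. JUN had a fold enrichment of 39.1 under DMSO and 42.0 under E2. RNAPII had 15.4 and 10.0 in the DMSO libraries and 41.3 and 39.7 in the E2 libraries, the highest RNAPII values of the locus in both E2 lists, above 98.5% and 99.7% of their lists. Both E2 values were thus above both DMSO values, in a locus chosen for its RNAPII gain. How many other RNAPII sites separate in this way was not counted. LSD1 (7.76) and TAF1 (6.55) had peaks here under E2 and none under DMSO. H3K27me3 had a peak under DMSO (14.7) and none under E2, in the list of 107 peaks. The LSD1 E2 list had 442 peaks and the LSD1 DMSO list 42, so whether LSD1 was absent from it under DMSO cannot be read from the lists.

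**Figure D4:**
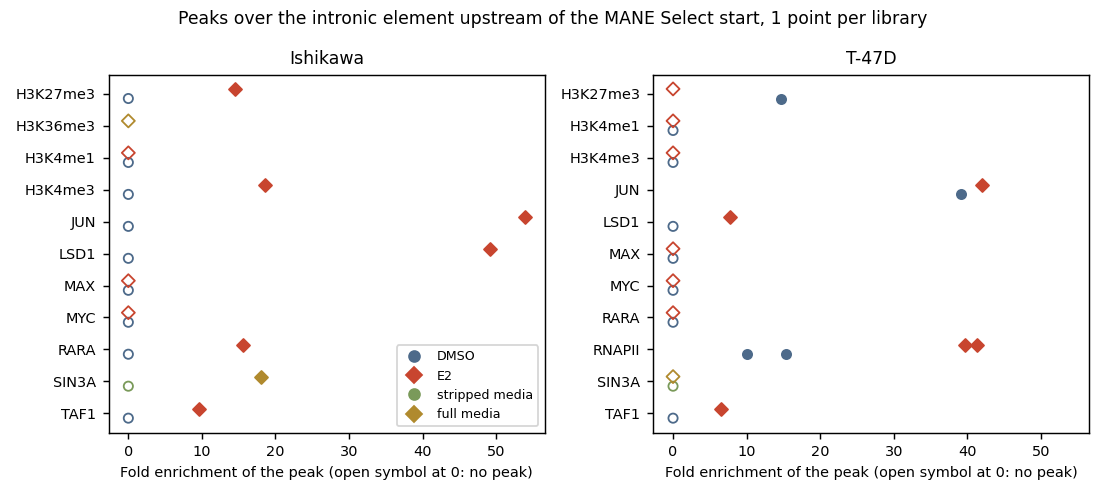
Fold enrichment of the peak over the element at -35.3 kb, by target and treatment, in Ishikawa (left) and T-47D (right), 1 point per library. An open symbol at 0 marks a list with no peak there. All 7 filled Ishikawa symbols are E2 or full media, while T-47D JUN and RNAPII have peaks under both treatments.

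Of the start sites, 7 places hold the 5' ends of the 10 annotated transcripts, and 13 of the 45 lists had a peak within 250 bp of one. The MANE start itself was among the least occupied, with a peak in RNAPII E2 replicate 1 and in no other list. No list of H3K4me3, the promoter mark, had a peak there. In Ishikawa, H3K4me3 peaked downstream of the outermost start, at -50.7 kb, with a fold enrichment of 36.8 under DMSO and 49.5 under E2, and TAF1 there had 17.6 and 17.8. MAX had 9.37 and 8.24 at that place, SIN3A 10.6 in stripped media, and LSD1 (11.6) and JUN (9.53) under E2 alone. The next start, GREB1-202 at 5.80 kb, had no H3K4me3 peak in Ishikawa and held weaker peaks of LSD1 E2 (7.66), SIN3A in full media (7.53) and JUN E2 (6.09).

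T-47D carried H3K4me3 at both ends of that stretch. Near the outermost start its fold enrichment was 14.0 under DMSO and 10.3 under E2, and across the starts of GREB1-202 and GREB1-203 it was 17.9 and 19.5. The latter belonged to a merged region of 6680 bp (chr2:11679263-11685942) that also held JUN (27.9 under DMSO, 29.3 under E2), TAF1 under E2 (8.20) and RNAPII (10.5 in DMSO replicate 1, none in replicate 2, and 20.6 and 19.01 under E2). H3K4me3 again marked the starts of GREB1-201 and GREB1-208, at 10.1 under DMSO and 9.33 under E2. H3K4me3 thus had peaks at these inner starts in T-47D under both treatments and at none of them in Ishikawa. The starts further into the gene, at 54.2, 78.2 and 78.3 kb, had no H3K4me3 peak in either line. Near the outermost start, RNAPII had 23.8 and no peak within 1 kb of it under DMSO, and 33.8 and 14.1 under E2.

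Just before the MANE start lay a pair of further elements. At -2.9 kb, T-47D JUN had its strongest DMSO peak of the locus (fold enrichment 39.5, above 99.7% of its list) and no peak under E2. RNAPII showed the reverse, with no peak in either DMSO library and 19.6 and 11.5 under E2. H3K27me3 DMSO (10.0) was the only other list with a peak there, and Ishikawa had none. The 200 bases around the JUN summit match neither the response element nor the AP-1 site as spelled above.
Element at -2.9 kb, chr2:11671133-11671332: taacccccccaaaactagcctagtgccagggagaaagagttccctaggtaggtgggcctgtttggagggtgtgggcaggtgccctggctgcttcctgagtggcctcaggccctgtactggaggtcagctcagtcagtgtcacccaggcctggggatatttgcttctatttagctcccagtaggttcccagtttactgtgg

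At -1.5 kb, over the response element printed above, Ishikawa JUN E2 had a fold enrichment of 15.6 and the T-47D RNAPII E2 libraries 14.8 and 15.1. An AP-1 match, TGAATCA, at -1.455 kb (bases 11672716 to 11672722) lay under peaks of the same 3 lists, just past the printed bases. The summit of Ishikawa JUN E2, base 11672721, fell inside that match and 55 bp after the middle of the response element. No DMSO list of either line had a peak over either match. Ishikawa JUN E2 also had a peak of its own at -18.4 kb (13.6).

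JUN in T-47D had peaks through much of the gene. From the start of GREB1-202 to the gene end, 30.5% of bases were under one of 62 JUN DMSO peaks and 16.9% under one of 31 JUN E2 peaks. The median fold enrichment of these peaks was 9.85 under DMSO and 14.4 under E2. Of the 75 JUN DMSO peaks of the locus, 64 (85.3%) overlapped peaks of both RNAPII E2 lists and 2 (2.67%) peaks of both RNAPII DMSO lists. Of the 39 JUN E2 peaks these were 32 (82.1%) and 1 (2.56%). Over the whole JUN DMSO list the shares were 53.4% and 43.8%, and over the whole JUN E2 list 53.2% and 42.6%. The share overlapping both DMSO lists is bounded by the 2 peaks of RNAPII DMSO replicate 2, and the RNAPII E2 peaks cover much of the gene, so these shares of the locus are set in part by how many RNAPII peaks each list holds. Conversely, all 14 peaks of RNAPII DMSO replicate 1 and both of replicate 2 overlapped a JUN DMSO peak. Of the JUN E2 peaks 37 of 39 (94.9%) overlapped a JUN DMSO peak, and 40 of 75 (53.3%) did the other way round. Whole-list shares for these overlaps, and for those of the RNAPII DMSO peaks with JUN DMSO peaks, were not counted. They therefore describe the locus alone and do not set it apart from other genes. With 1 JUN library per treatment there is no measure of spread, and no value here checks the treatment labels of these 2 libraries.

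JUN coverage of the gene span was 215 bp per kb under DMSO and 122 under E2, 1.76-fold lower. Coverage at least 1.5-fold lower under E2 was seen at 11.8% of protein-coding genes with JUN coverage, and at least 1.5-fold higher at 24.4%. Among the 27 genes with the largest RNAPII gap, defined below, 11 (40.7%) were lower for JUN and 0 higher, GREB1 included. Counting only peaks whose fold enrichment reached 10, the locus held 41 under DMSO and 33 under E2, so that the ratio of E2 to DMSO was 0.805 in place of 0.520.

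Other start sites within the window were also occupied. The upstream neighbour E2F6, a repressive member of the E2F family, starts at -67.9 kb. Its start held H3K4me3 at 35.3 under DMSO and 32.9 under E2 in Ishikawa and 17.2 in each T-47D list, and TAF1 in all 4 TAF1 lists (14.5 to 25.0). RNAPII there had 46.3 and no peak under DMSO, and 16.2 and 10.4 under E2, so the treatments overlapped. NTSR2, a neurotensin receptor gene downstream at 136 kb, had no H3K4me3 peak within 1 kb of its start in either line. In Ishikawa it held SIN3A (26.96 in stripped media, 32.1 in full media), LSD1 (8.45 under DMSO, 17.0 under E2), MAX DMSO (8.32) and H3K27me3 E2 (10.6). In T-47D it held MAX (7.54 under DMSO, 14.8 under E2), JUN (11.9 under DMSO, 13.0 under E2) and RNAPII DMSO replicate 1 (19.1). No list had a peak within 1 kb of the outermost start of LPIN1, a phosphatidate phosphatase gene at 144 kb. A region inside GREB1 at 97.0 kb held 5 targets in Ishikawa, with fold enrichments from 8.27 to 12.7. H3K4me1, H3K4me3 and SIN3A had peaks there in both of their lists, TAF1 under DMSO alone and LSD1 under E2 alone.

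The gene was then set beside all others by RNAPII coverage per kb of gene span, using as gap the lowest E2 value minus the highest DMSO value. The gap of GREB1 was 303 bp per kb, rank 7 of 20090 protein-coding genes. A gap of at least 100 bp per kb was found at 27 of the 14082 genes with a peak (0.192%), and 954 (6.77%) were lower in both E2 lists. The 5 genes with the widest gap were IFITM10 (556 bp per kb), ENSG00000250644 (456), which overlaps IFITM10, STC2 (449), a secreted glycoprotein gene, GPR132 (348), a G protein-coupled receptor gene, and THBS1 (346), the thrombospondin-1 gene. GREB1 stood apart from these in length. Its span of 160 kb was the longest of the 27, whose median was 18.2 kb, and the next longest was FHL2 at 80.8 kb. By gap times span, which weights long genes and uses the values that GREB1 was chosen on, GREB1 ranked 1.

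The rank rested on RNAPII DMSO replicate 1, the longer DMSO list. Without it GREB1 ranked 40 and 6941 genes in place of 251 were higher under E2, and without E2 replicate 2 it ranked 15 and 2130 genes were higher. Among genes of at least 10 kb with coverage, GREB1 was 77 of 10688 in E2 replicate 1 and 52 of 9209 in E2 replicate 2. In DMSO replicates 1 and 2 it was 4034 of 11163 and 6622 of 8375.

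**Figure D5:**
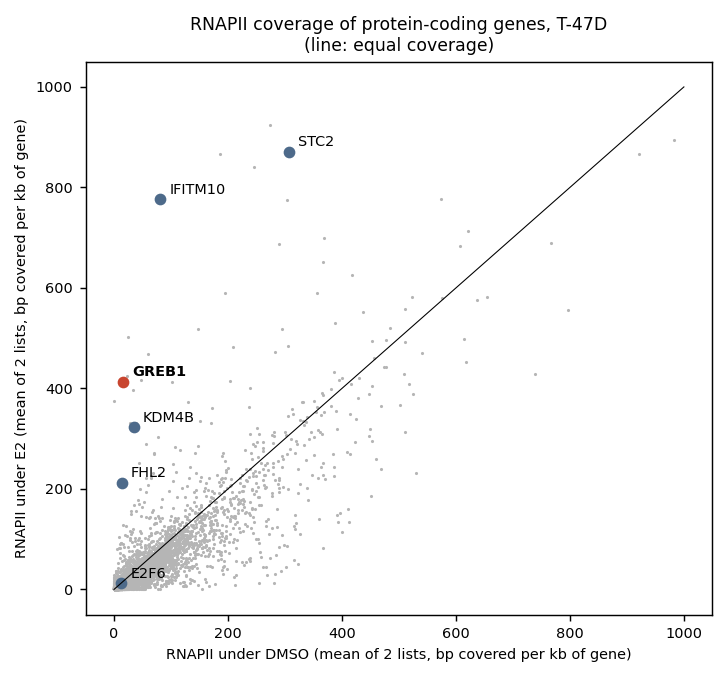
RNAPII coverage of protein-coding genes of at least 10 kb with a peak, in bp under a peak per kb of gene span, as the mean of 2 DMSO lists (horizontal) and of 2 E2 lists (vertical), with the line of equal coverage. Each grey point is 1 gene. GREB1 (red) lies near 0 under DMSO (16.2) and at 413 under E2, and E2F6 lies close to the line.

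Of 18 genes named here as estrogen-induced, 7 had higher RNAPII coverage in both E2 lists, 5 of them with a gap of at least 100 bp per kb, and 0 were lower in both. Over all genes with a peak, the shares were 1.78% higher in both, 0.192% with such a gap and 6.77% lower in both. The median gap of the list was 0, which is the value of the 3 genes with no peak. Over all genes with a peak it was -13.1, and that set leaves such genes out, so the medians are of unlike sets. STC2, IGFBP4 (gap 283), an IGF-binding protein gene, SIAH2 (149), a ubiquitin ligase gene, XBP1 (132), a transcription factor gene, and CA12 (125), a carbonic anhydrase gene, made up the 5. TFF1, PDZK1 and AREG had no RNAPII peak in any of the 4 lists. IGFBP4 came closest to GREB1, with 49.3 and 0 bp per kb under DMSO and 671 and 332 under E2.

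The gene whose coverage over the 45 lists was most like that of GREB1 was KDM4B, a histone H3 lysine 9 demethylase gene, with a Pearson r of 0.94 and a Spearman rho of 0.93 of log2(bp per kb + 1). It was followed by RUNX1, OSGIN1, SBNO2 and FHL2 (r = 0.90 each). The median over 12970 genes was 0.70 and the 95th percentile 0.80. The points of each correlation share libraries, antibodies and list lengths. KDM4B had 67.5 and 1.88 bp per kb of RNAPII under DMSO and 522 and 124 under E2, but its JUN coverage was 390 under DMSO and 483 under E2, the reverse order of GREB1. Without the 4 RNAPII lists KDM4B and SBNO2 remained among the 5 most alike.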

How the data were processed

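Peak lists of 45 ChIP-seq libraries were used, and 4 input libraries were not analysed here. The authors aligned reads to hg19 with Bowtie 1.1.2 and called peaks in each library with MACS2 2.1.0.20140616, per the labels. They deposited for each peak a fold enrichment (a ratio of ChIP pileup to background at the summit), -log10 p-values and -log10 q-values, and a score. Depth is not given in the lists and is unknown, so no counting interval was made. Groups followed the labels.

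Peaks overlapping the GREB1 span with 100 kb on each side were kept. A peak within 250 bp of a transcript start was called a start-site peak, and others were placed by summit. Genes and starts came from GENCODE release 44 on GRCh37, and sequence from the same build. Overlap meant at least 1 bp. Covered bases were summed over merged peaks and divided by gene span in kb. Percentages of genes beside a count of peaks are over protein-coding genes with a peak of either list in their span with 100 kb on each side. Python 3.11.15, numpy and scipy were used, and the coverage script was tested on simulated data.

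The named genes were GREB1, genes starting in the window, 18 estrogen-induced genes, the 5 with the widest gap and the 5 most alike. The named regions were those with the most targets, the strongest RNAPII E2 and JUN peaks of each zone, and upstream regions held by both RNAPII E2 lists. The locus, lists and motifs were chosen with earlier results of these data known. Alternatives were other flanks, thresholds, joining of peaks, list length, gene length, and leaving out libraries. The matches to 1 further motif searched, and a sequence holding it, are not reported here.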

Additional observations from a re-analysis of the deposited data

Results flagged for a closer look

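For 4 targets the number of peaks at the locus moved in opposite directions in the lines between DMSO and E2, with 1 library per group. None of these differences between lines was tested. JUN rose from 0 to 7 peaks in Ishikawa and fell from 75 to 39 in T-47D, so that the changes differed by 43 peaks. H3K27me3 went from 1 to 2 in Ishikawa and from 3 to 0 in T-47D, a difference of 4. H3K4me1 (4 to 5, and 2 to 0) and H3K4me3 (6 to 7, and 16 to 14) differed by 3 each. For H3K4me3 the opposite direction held for the number of peaks alone, as the covered bases were higher under E2 in both lines (3263 and 3783 bp in Ishikawa, 7508 and 8237 bp in T-47D). The whole lists moved as well. The E2 list was 4.86 times as long as the DMSO list for Ishikawa JUN and 0.867 times for T-47D JUN, and 3.18 and 0.0170 times for H3K27me3. The part of list length in these differences was not tested.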

How the results depend on the processing

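Flanks of 50 kb or none, a fold enrichment of at least 10 and a -log10 q-value of at least 10 kept the RNAPII ratios within 1.5 times of 14.1 (peaks) and 21.8 (covered bases). Joining peaks up to 500 bp apart lowered the ratio of peaks to 7.08, since fewer and longer peaks were then counted. Leaving out 1 RNAPII library gave ratios from 8.07 to 56.5 for peaks and from 11.9 to 135 for covered bases. The replicate numbers are shared by the RNAPII groups, and the labels do not say that a number marks a shared culture. With the number as a replicate block, the mean ratio was 31.4 for peaks and 61.5 for covered bases, 1315 genes in place of 251 were higher under E2 and GREB1 ranked 13. The block over genes, and leaving out libraries in the count of genes, were added after the data had been seen. Leaving out 1 library gave 420 to 6941 genes and ranks from 8 to 40.

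At a fold enrichment of at least 10 the JUN ratio of peaks in T-47D was 0.805. The even total of 23 T-47D peaks without RNAPII and JUN turned to a ratio of 1.05 at a -log10 q-value of at least 10 (21 to 22 peaks) and 1.06 with joined peaks (18 to 19). Lists with a start-site peak numbered 21 with 1000 bp in place of 250 bp. Where a JUN peak had to be covered by at least 50%, the overlap with both RNAPII E2 lists was 72.0% for JUN DMSO and that with both RNAPII DMSO lists 0 for each JUN list. Without the RNAPII lists, 2 of the 5 most alike genes stayed. The cause of these shifts was not tested. Depth is unknown, and a missing peak sets no limit on binding.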
